A study of Rattus norvegicus with 6 samples.

Results

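Endothelial nuclei, those of the cells that line brain vessels, made up 301 of the 73649 nuclei that passed the limits on quality (at least 500 UMIs, 250 to 5000 genes and at most 5% mitochondrial UMIs), or 0.409% of all nuclei. They were selected on their own counts. A member held at least 3 UMIs of Pecam1, Vwf and Mecom together, these being at least 0.3% of its UMIs. It also held at most 3 UMIs of the neuronal genes Snap25, Syt1 and Rbfox3 and at most 1 UMI of the mural cell genes Pdgfrb, Abcc9, Rgs5 and Vtn. Flt1 and Cldn5, which the selection also names, were not analysed here, so counts and shares of members rest on 3 of its 5 marker genes, and more nuclei could reach 3 UMIs with all 5.

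The data are single-nucleus RNA counts (UMIs, one per captured transcript) from the brains of male wild-type Wistar rats aged 12 weeks, taken 48 h after surgery. The right middle cerebral artery was closed permanently with a filament (MCAO), and MRI divided the animals into moderate (mMCAO, 3 rats) and severe (sMCAO, 4 rats) infarctions. Sham rats (4) had the operation without occlusion. The hemispheres were sequenced apart, with the rats of a class pooled, giving 6 libraries in 3 groups: Sham (Sham L and Sham R), MCAO contra (the hemisphere opposite the lesion, mMCAO contra and sMCAO contra) and MCAO ipsi (the lesioned hemisphere, mMCAO ipsi and sMCAO ipsi). No group holds separate animals of one condition, because the Sham libraries share their rats and MCAO libraries differ by infarct severity, so p-values measure only the spread between these libraries. Values below are given in the order Sham L, Sham R, mMCAO contra, sMCAO contra, mMCAO ipsi and sMCAO ipsi, which is called library order.

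Brain endothelial cells form the blood-brain barrier. Tight junctions close the gaps between them, transporters carry glucose, amino acids and iron across, efflux pumps return many compounds to the blood, and Wnt signals from the tissue keep this program active. After ischaemia, endothelium is known to display adhesion molecules for leukocytes, to rebuild its basement membrane and, later, to sprout. Along the vascular tree, arterial, capillary and venous endothelium use partly different genes.

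The label was compared with genes that the selection did not use. A list of 33 endothelial identity genes, among them the junction cadherin Cdh5, the angiopoietin receptor Tek and the adhesion receptor Adgrl4, summed to 15348, 11807, 13648, 15060, 15482 and 19014 CPM (counts scaled to a common total, over the summed endothelial nuclei) in library order. In all nuclei outside the members, mural and astrocyte nuclei included, the same list summed to between 596 and 877 CPM. In the mural nuclei described below it summed to 11609, 11011, 9169, 16388, 8740 and 3159 CPM. These values were close to those of the members in Sham R and above them in sMCAO contra. All 33 genes had at least 1 UMI in the members, and they hold genes that leukocytes also use (Fli1, Ets1 and Tal1). Adgrl4 was the most abundant, and after thinning to 500 UMIs it was found in 11 of 14, 5 of 9, 20 of 33, 7 of 10, 21 of 36 and 142 of 199 members, against 0.367% to 0.933% of all other nuclei. By these genes the members were endothelial, but the list alone did not set them apart from mural nuclei in Sham R and sMCAO contra.

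The selection genes themselves were at 219, 1046, 244, 628, 641 and 616 CPM for the adhesion molecule Pecam1, at 1316, 2242, 1630, 3263, 2349 and 3067 CPM for Vwf, the von Willebrand factor, and at 4312, 2391, 4604, 3765, 3337 and 4529 CPM for the transcription factor Mecom. These values chose the members and are not a finding. Members with just 3 marker UMIs numbered 2, 4, 10, 5, 9 and 17, and 2, 4, 7, 2, 4 and 9 nuclei that met the other limits held 2. The limit on mural genes kept out 7, 6, 16, 11, 22 and 26 nuclei, and the limit on the share of UMIs kept out 1, 0, 4, 2, 19 and 24. The limit on neuronal genes alone kept out 0.

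Markers of other cell types were read in the same members. Of 14 neuronal genes outside the selection, all were found, summing to 8039, 7174, 4563, 8032, 2376 and 558 CPM, with Kcnip4, a potassium channel subunit, highest. Astrocyte nuclei, which should lack these genes too, held 8094, 7688, 4243, 4520, 2826 and 1786 CPM, and all other nuclei, most of them neurons, from 19742 to 32717 CPM. Kcnip4 was found in 12 of 14 members in Sham L (85.7%, thinned to 500 UMIs) and in 17 of 199 in sMCAO ipsi (8.54%), where 88.6% and 38.3% of other nuclei held it. Neuronal RNA in the members was close to that in astrocyte nuclei in Sham, mMCAO contra and mMCAO ipsi, above it in sMCAO contra and below it in sMCAO ipsi. It was higher in Sham and MCAO contra than in MCAO ipsi.

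Mural genes summed to 2558, 2840, 2933, 3891, 2082 and 2978 CPM, mostly Ebf1, a transcription factor of pericytes and other cells, while Acta2 and Slc6a12 were at 0. All 9 lymphocyte genes were at 0 in every library. Myeloid genes (16 of 19 found, Inpp5d highest, Tmem119, Ms4a7 and Cd68 at 0) summed to 73.1, 0, 937, 0, 1174 and 397 CPM. Fibroblast genes reached at most 326 CPM with Dcn and Lum at 0, and astrocyte genes at most 377 CPM with Aldh1l1 at 0. Oligodendrocyte genes (12 of 12 found, Mbp highest) summed to 1096, 3139, 1548, 1381, 1281 and 520 CPM, OPC genes to at most 1130 CPM, and 6 of 7 ependymal genes were at 0. A list of alpha globin and platelet genes, which did not hold the beta globin gene Hbb-b1, summed to 7893, 747, 652, 0, 827 and 1212 CPM, almost all Hba-a2, and with Hbb-b1 to 13520, 1495, 1059, 377, 1068 and 1821 CPM. In Sham L the list gave 108 UMIs in 4 nuclei, and in sMCAO ipsi 354 UMIs in 43 nuclei, of which 1 nucleus held 220.

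The members were shallow. Their median depth was 952, 737, 692, 749.5, 823 and 1121 UMIs, while that of all nuclei ran from 2059 in sMCAO ipsi to 3360 in mMCAO contra, and the deepest member held 5519 UMIs (sMCAO ipsi). Median mitochondrial shares were 0.92% and 0.69% in Sham, 0.14% and 0.12% in MCAO contra, and 0.13% and 0.39% in MCAO ipsi. The summed members gave 13683, 6691, 24546, 7968, 37463 and 292149 UMIs, so that sMCAO ipsi supplied 76.4% of the 382500 UMIs. No member's barcode was a member in another library. Whole libraries shared 118 to 280 barcodes by pairs, and 5 members of sMCAO ipsi had the barcode of some nucleus in Sham L. The 5% of nuclei most like simulated doublets held 7 members, all in sMCAO ipsi.

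Endothelial nuclei were most frequent in the lesioned hemisphere of severe infarctions. There were 14 in Sham L, or 0.107% of its nuclei (95% Clopper-Pearson interval 0.0583 to 0.179%), and 9 in Sham R, or 0.0661% (0.0302 to 0.125%). mMCAO contra held 33, or 0.228% (0.157 to 0.320%), and sMCAO contra 10, or 0.0926% (0.0444 to 0.17%). The 36 nuclei of mMCAO ipsi were 0.278% (0.195 to 0.385%). The 199 nuclei of sMCAO ipsi were 2.30% (1.99 to 2.63%) and made up 66.1% of all members. The interval of sMCAO ipsi lay above those of the other 5 libraries, and the intervals of mMCAO ipsi and mMCAO contra overlapped. These intervals cover counting error only. With 2 libraries per group an exact permutation test cannot give a two-sided p under 0.333, so the groups were not tested, and a share of nuclei does not tell more endothelial cells apart from fewer cells of other kinds.

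Depth differed between the libraries. When every nucleus was thinned to 1000 UMIs before selection and shallower nuclei were left out, the shares were 0.0537, 0.00820, 0.0575, 0.0547, 0.181 and 1.92% in library order, and sMCAO ipsi stayed above the rest. A selection on the identity list in place of the 3 marker genes gave 0.290, 0.220, 0.745, 0.435, 2.15 and 4.99%. By that measure mMCAO ipsi also stood above Sham and MCAO contra. It took in 284 of the 301 members, but most of the nuclei it chose were not members. In library order 13 of 38, 6 of 30, 28 of 108, 8 of 47, 34 of 279 and 195 of 432 were. Its shares are thus not shares of the members, and what the other nuclei were was not tested. Nuclei with mural genes, selected in the mirrored way, numbered 10, 7, 6, 6, 20 and 34, so the severe lesion held the most of these as well.

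**Figure D1:**
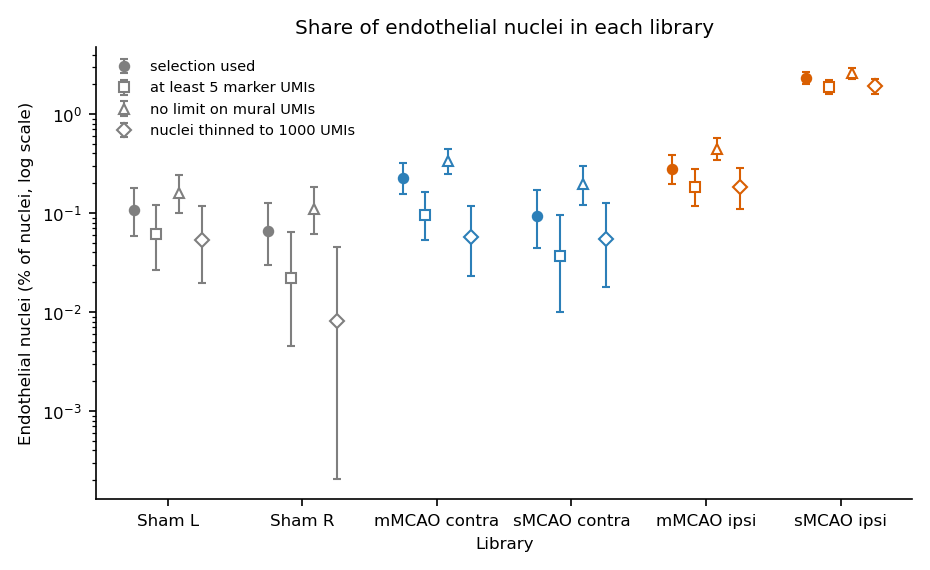
Share of endothelial nuclei (% of nuclei, log scale) in each library, with 95% Clopper-Pearson intervals for counting error only. Filled circles give the selection used and open symbols 3 other selections. Under all 4 the share in sMCAO ipsi (2.30% by the selection used) lies above the other 5 libraries.

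The comparison of MCAO ipsi with Sham asked how endothelial expression differed in the infarcted hemisphere. Of 13598 genes with a UMI in the members, 372 passed the filter on low counts and were tested, and a call needed both an adjusted p below 0.05 and a log2 fold change of 0.6 or more in either direction. edgeR's quasi-likelihood test (Benjamini-Hochberg) called 0 of the 372 (0%). At an unadjusted p under 0.05, 39 genes were higher (10.5%) and 45 lower (12.1%), and the median log2 fold change of all 372 was 0.14. DESeq2 called 5 genes, all lower, namely the neuronal genes Kcnip4 and Dpp10, Ntm, the haemoglobin gene Hbb-b1 and AABR07006724.1. Ntm was at 2879 to 8006 CPM in astrocyte nuclei. The filter asks for a minimum level in at least 2 libraries, so a gene could pass through the group where it was high. Tacr1, Mgp and Cd200, with 250, 233 and 211 UMIs in sMCAO ipsi, did not pass and were not tested. The genes named next are those nearest to the threshold and those of lists on endothelial functions. None passed the test unless that is stated.

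The receptor for interleukin 1, Il1r1, which passes inflammatory signals into the endothelial cell, was at 438.5 and 448 CPM in Sham L and Sham R. It was at 1874 and 2385 CPM in mMCAO contra and sMCAO contra, and at 1255 and 2841 CPM in mMCAO ipsi and sMCAO ipsi. Both Sham libraries lay below the other 4, and the MCAO contra and MCAO ipsi values overlapped. The log2 fold change of MCAO ipsi over Sham was 2.39 ± 0.59 (SE, 2 libraries per group, adjusted p = 0.102 by edgeR's quasi-likelihood test), and that of MCAO contra over Sham was 2.20 ± 0.61 (adjusted p = 0.418). Thinned to 500 UMIs, 3 of 14, 1 of 9, 17 of 33, 4 of 10, 14 of 36 and 85 of 199 members held a UMI of it, against 0.168% to 1.29% of other nuclei. Il1r1 had 6 and 3 UMIs in the Sham libraries, and the part of background RNA in its level was not tested. With each library left out in turn the log2 fold change over Sham stayed between 1.79 and 3.17.

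Because Il1r1 was one of the genes with the widest gap between Sham and the other libraries, its promoter is shown as RefSeq gives it for GRCr8, chr9:50034133-50034432, plus strand. The 300 bases hold 250 before the start site and 50 from it on. The counts were made on mRatBN7.2, so coordinates belong to the promoter table alone. Capitals would mark CCGGAAG, the core of sites for Ets factors, or ACGTG, the core of the hypoxia response element, on either strand.
Il1r1: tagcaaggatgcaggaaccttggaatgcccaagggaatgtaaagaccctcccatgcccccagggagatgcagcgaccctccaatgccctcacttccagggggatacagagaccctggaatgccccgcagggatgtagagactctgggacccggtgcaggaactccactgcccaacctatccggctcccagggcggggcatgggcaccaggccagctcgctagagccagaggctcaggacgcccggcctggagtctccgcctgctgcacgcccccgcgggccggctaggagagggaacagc
Neither motif occurred in this window, which says only that these letters are not in it. Of all 33469 RefSeq promoters 8.75% held CCGGAAG and 19.3% held ACGTG.

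Genes of leukocyte adhesion and inflammatory activation summed to 3289, 2840, 4155, 4769, 5098 and 7979 CPM, and 38 of 40 were found (Cxcl10 and Il6 were at 0). Il1r1 was the most abundant of them, and without it the sums were 2850, 2391, 2281, 2385, 3844 and 5138 CPM, so that MCAO contra was above Sham only with Il1r1 and both MCAO ipsi libraries were above the other 4 without it. Of the 2 that could be tested, Il1r1 was higher at an unadjusted p under 0.05 (10.5% of all genes were) and Cxcl12 was not, with 0 called in MCAO ipsi against Sham and a median log2 fold change of 0.57 beside 0.14 for all genes. Cxcl12, a chemokine that capillary endothelium makes, was at 1242 and 1046 CPM in Sham, 367 and 753 CPM in MCAO contra, and 774 and 226 CPM in MCAO ipsi. Its log2 fold change of -1.24 ± 0.64 (MCAO ipsi against Sham) missed the threshold.

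Several basement membrane genes had their highest values in MCAO ipsi. Col4a1, a chain of collagen IV, the main collagen of the vascular basement membrane, was at 438.5 and 149 CPM in Sham, at 204 and 502 CPM in MCAO contra, and at 1201 and 1756 CPM in MCAO ipsi. Both MCAO ipsi libraries lay above the other 4. The log2 fold change was 2.32 ± 0.58 against Sham (adjusted p = 0.102) and 2.50 ± 0.56 against MCAO contra (adjusted p = 0.101, both by edgeR's quasi-likelihood test). Against Sham it ran from 1.94 without Sham R to 3.85 without Sham L. Col4a2, its partner chain, was at 512, 0, 204, 502, 561 and 1023 CPM, with log2 fold changes of 1.49 ± 0.77 and 1.65 ± 0.73. Thinned, Col4a1 was found in 22.2% of members in mMCAO ipsi and 44.7% in sMCAO ipsi, against 1.71% and 2.48% of other nuclei.

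Both chains are read from one stretch of DNA in opposite directions, and their levels were both highest in sMCAO ipsi, so the shared promoter is shown as the window of Col4a1 (RefSeq, GRCr8, chr16:84885347-84885646, plus strand).
Col4a1: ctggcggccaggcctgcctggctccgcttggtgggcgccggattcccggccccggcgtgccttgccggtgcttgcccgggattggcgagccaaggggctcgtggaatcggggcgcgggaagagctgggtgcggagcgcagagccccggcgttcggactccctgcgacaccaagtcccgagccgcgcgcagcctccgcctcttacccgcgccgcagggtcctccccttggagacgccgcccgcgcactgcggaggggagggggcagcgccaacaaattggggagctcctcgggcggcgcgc
The windows of Col4a1 and Col4a2 overlapped by 176 bases, and their start sites lay 77 bases apart. Neither motif occurred in the window shown. The window of Adamts9, a protease that cleaves matrix proteoglycans, is shown for comparison because it held ACGTG once, on the opposite strand and so as CACGT in capitals (RefSeq, GRCr8, chr4:127019827-127020126, minus strand, written along that strand).
Adamts9: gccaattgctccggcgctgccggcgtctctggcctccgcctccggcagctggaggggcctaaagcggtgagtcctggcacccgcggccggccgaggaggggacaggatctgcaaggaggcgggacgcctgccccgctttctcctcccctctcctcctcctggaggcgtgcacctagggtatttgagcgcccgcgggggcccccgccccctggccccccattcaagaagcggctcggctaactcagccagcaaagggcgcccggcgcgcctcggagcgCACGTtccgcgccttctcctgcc
Among 23 promoters of 18 named genes that were higher in MCAO ipsi than in Sham at an unadjusted p under 0.05, 5 held ACGTG (21.7%) and 0 held CCGGAAG. Of 28 promoters of 24 identity genes, 7 held ACGTG (25%) and 0 held CCGGAAG.

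Adamts9 was at 365 and 598 CPM in Sham, 937 and 251 CPM in MCAO contra, and 961 and 1633 CPM in MCAO ipsi, a log2 fold change of 1.70 ± 0.66 over Sham (adjusted p = 0.183 by edgeR's quasi-likelihood test). This fold change ran from 1.39 without sMCAO ipsi to 2.35 without mMCAO ipsi. Sparc, a collagen-binding matrix protein, was at 1316, 747, 530, 879, 1869 and 1804 CPM, and Igfbp7, secreted by vessels into the matrix, at 585, 448, 367, 879, 1308 and 1688 CPM. In both, the MCAO ipsi libraries lay above all others. Their log2 fold changes against MCAO contra were 1.66 ± 0.46 and 1.65 ± 0.48, with adjusted p of 0.155 for each by edgeR's quasi-likelihood test. As a list, 32 of 35 matrix genes were found, summing to 7528, 4035, 5541, 4769, 9156 and 11987 CPM. Of the 7 tested, 2 were higher and 0 lower than Sham at an unadjusted p under 0.05, beside 10.5% and 12.1% of all genes, with a median log2 fold change of 0.93 (0.14 for all genes). Against MCAO contra 2 were higher and 0 lower, beside 6.72% and 7.53% of all genes, with a median of 1.16 (0.04 for all genes), and no member was called in either. Col4a1 and Col4a2 reached the filter's level (523 CPM in at least 2 libraries) in MCAO ipsi alone, which favoured higher values there, so these counts and medians are no support for a direction of the list.

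Entpd1, an ectoenzyme that removes ATP and ADP from the blood side of the vessel wall, had 0 UMIs in both Sham libraries, 163 and 251 CPM in MCAO contra, and 534 and 1030 CPM in MCAO ipsi. Over a floor of 3 UMIs in the pooled Sham members (147 CPM) it was at least 6.61-fold higher in the pooled MCAO ipsi members, most of them from sMCAO ipsi, and at least 3.63-fold higher in mMCAO ipsi alone. Peak1, a scaffold of the actin cytoskeleton, was also at 0 in Sham, at 204 and 377 CPM in MCAO contra and at 694 and 623 CPM in MCAO ipsi, at least 4.29-fold higher over the same floor. Sham was the lowest group for both genes, and both passed the filter through MCAO ipsi alone. Plpp1, a lipid phosphatase, was at 73.1, 0, 448, 628, 614 and 702 CPM, and Pip5k1b, a lipid kinase, at 73.1, 149, 733, 1004, 507 and 852 CPM. For these 4 the MCAO contra libraries too lay above Sham.

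Lrmda, Setbp1, the splicing factor gene Luc7l2 and the cAMP phosphodiesterase gene Pde4d completed the 10 genes nearest to the threshold on the higher side. Pde4d was at 1023, 598, 1344, 1255, 2322 and 2232 CPM in library order, a log2 fold change of 1.58 ± 0.45 that ran from 1.32 without Sham R to 2.47 without Sham L. Adjusted p over these 10 ran from 0.101 to 0.116 (edgeR's quasi-likelihood test). Vim, an intermediate filament of endothelial and mesenchymal cells, was at 292 and 149 CPM in Sham, 407 and 251 CPM in MCAO contra and 694 and 702 CPM in MCAO ipsi, a log2 fold change of 1.68 ± 0.57 (adjusted p = 0.148), or 2.75 without Sham L. Without mMCAO ipsi, so that sMCAO ipsi stood alone for its group, edgeR's quasi-likelihood test called 86 genes in MCAO ipsi against Sham, 45 higher and 41 lower. It called 40 without sMCAO contra, 14 without mMCAO contra and 1 without sMCAO ipsi. Those counts rest on which library was left out.

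**Figure D2:**
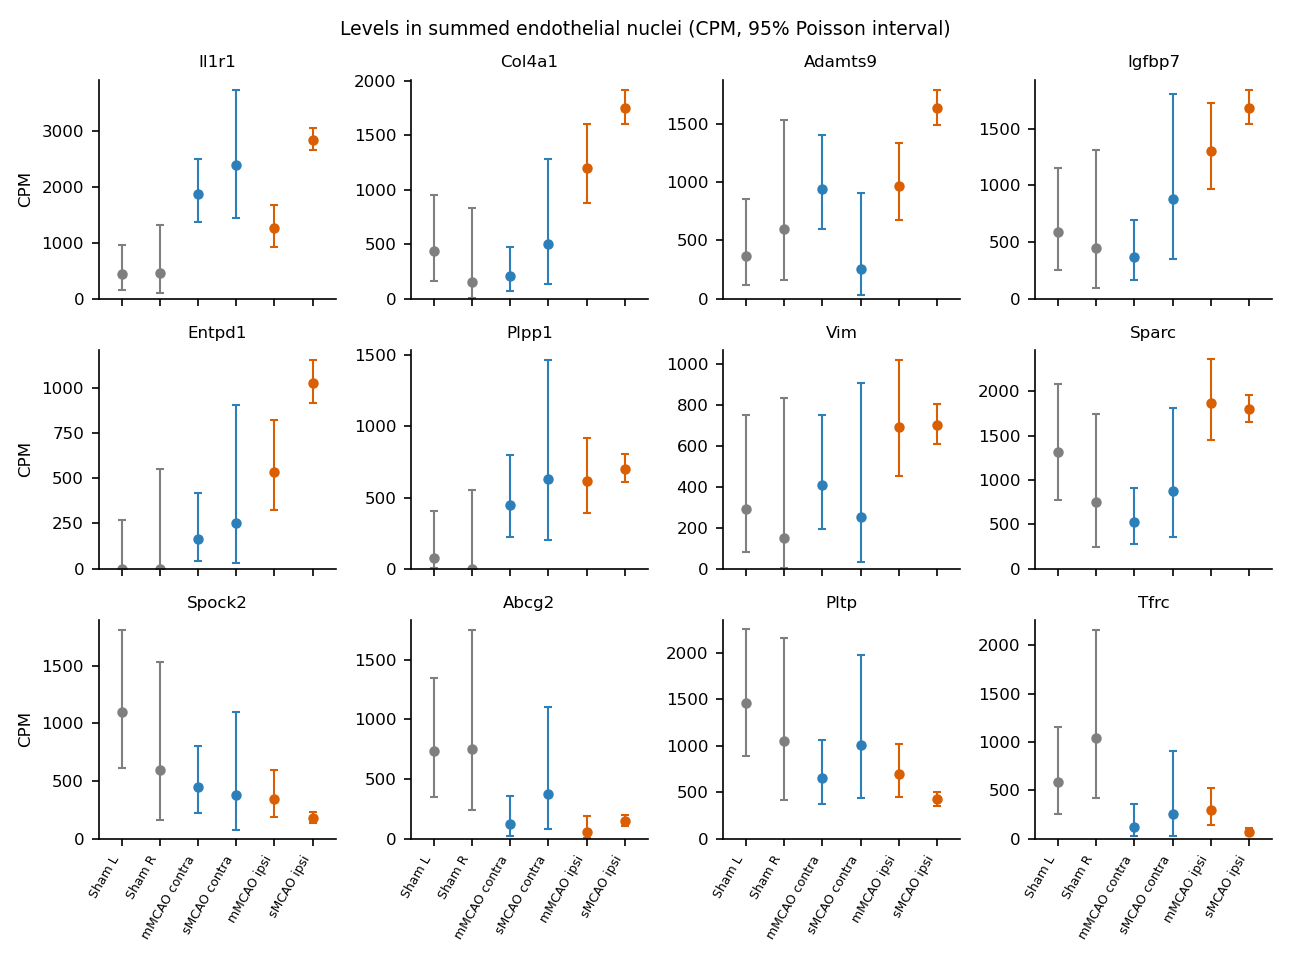
Levels of 12 named genes in the summed endothelial nuclei (vertical axis, CPM on a linear scale from 0) in the 6 libraries (grey Sham, blue MCAO contra, orange MCAO ipsi), with 95% Poisson intervals for counting error only. Il1r1 is lowest in both Sham libraries, Col4a1, Igfbp7, Vim and Sparc are highest in both MCAO ipsi libraries, and Abcg2, Tfrc, Pltp and Spock2 are highest in both Sham libraries.

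Several genes of the blood-brain barrier had lower values in MCAO ipsi than in Sham, none of them past the test. The list of transporters and barrier genes (28 of 34 measured, all found) summed to 17175 and 13750 CPM in Sham, 9370 and 13429 CPM in MCAO contra, and 10650 and 9043 CPM in MCAO ipsi, and both MCAO ipsi libraries lay below both Sham libraries. Of the 13 tested in MCAO ipsi against Sham, 5 were lower and 0 higher at an unadjusted p under 0.05, beside 12.1% and 10.5% of all genes. Their median log2 fold change was -0.55 (0.14 for all genes), and 0 were called. Of the 13, 5 (Abcg2, Abcc4, Slco1c1, Tfrc and Spock2) would not have passed the filter without Sham, which favoured lower values in MCAO ipsi, so the count and the median are no support for a direction, while the sums above take in all 28 genes. In MCAO ipsi against MCAO contra the median was -0.03 (0.04 for all genes), with 1 higher and 1 lower at that p, beside 6.72% and 7.53% of all genes.

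Abcg2, an efflux pump, was at 731 and 747 CPM in Sham, 122 and 377 CPM in MCAO contra, and 53.4 and 151 CPM in MCAO ipsi, a log2 fold change of -2.45 ± 0.86 (adjusted p = 0.163 by edgeR's quasi-likelihood test). The transferrin receptor Tfrc, which takes up iron, was at 585 and 1046 CPM in Sham, 122 and 251 CPM in MCAO contra, and 294 and 68.5 CPM in MCAO ipsi (-2.25 ± 0.96). The proteoglycan gene Spock2 was at 1096, 598, 448, 377, 347 and 178 CPM (-1.73 ± 0.58), and the phospholipid transfer protein Pltp at 1462, 1046, 652, 1004, 694 and 424 CPM (-1.11 ± 0.44). In all 4 genes both MCAO ipsi and both MCAO contra libraries were below both Sham libraries. These rest on few UMIs in Sham, from 4 to 20 per gene and library. Without Sham L the log2 fold change of Spock2 was -0.77 and that of Pltp -0.42, and without sMCAO ipsi that of Tfrc was -1.07. That of Abcg2 ran from -3.33 without sMCAO ipsi to -1.79 without mMCAO ipsi.

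In 3 other barrier genes the values of MCAO ipsi and Sham overlapped. Slc2a1, the glucose transporter of the barrier, was at 1462, 448, 611, 1130, 1308 and 1037 CPM (log2 fold change 0.31 ± 0.53), with MCAO ipsi inside the range of Sham. Slco1a4, an organic anion transporter, was at 1900, 897, 1263, 1130, 1094 and 1006 CPM (-0.33 ± 0.45). Lef1, a transcription factor of the Wnt pathway, was at 1462, 299, 1426, 1381, 1255 and 1520 CPM (0.67 ± 0.57). A p that misses the threshold does not show that these levels were alike.

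Junction genes summed to 6139, 5380, 5744, 5773, 6727 and 7325 CPM, with 18 of 21 found and Cgn, Cldn1 and Cldn3 at 0. Of the 6 tested against Sham, 0 were higher or lower at an unadjusted p under 0.05 (10.5% and 12.1% of all genes were), and their median log2 fold change was 0.51 (0.14 for all genes). The scaffold protein Tjp1 was at 1535 and 1196 CPM in Sham and at 1094 and 1027 CPM in MCAO ipsi (-0.24 ± 0.40), while Magi1 was at 365 and 747 CPM in Sham and at 641 and 962 CPM in MCAO ipsi (0.85 ± 0.54). None of the 8 measured caveolar genes passed the filter, and their sum was level, at 585, 448, 448, 628, 587 and 582 CPM.

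**Figure D3:**
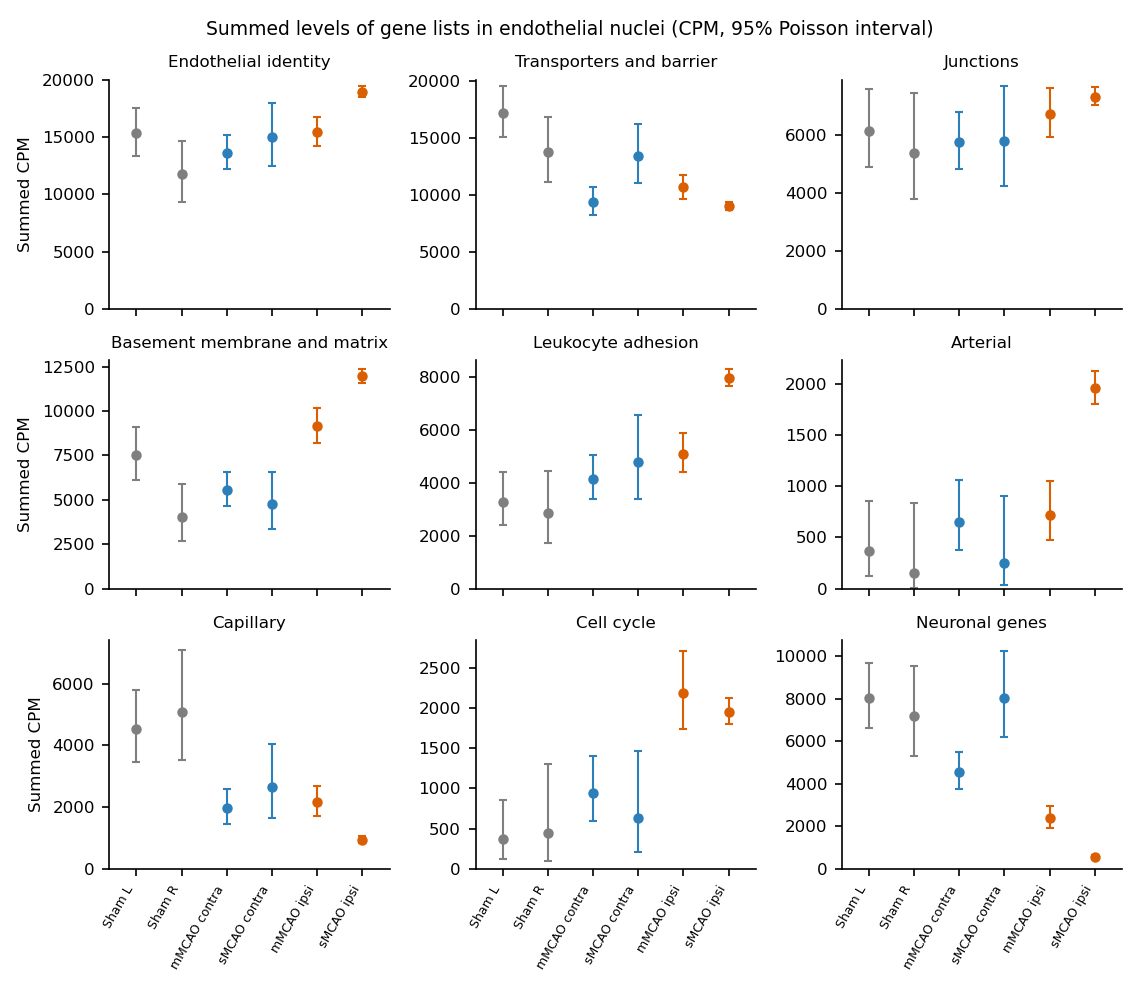
Summed levels of 9 gene lists in endothelial nuclei (vertical axis, CPM on a linear scale from 0) in each library, with 95% Poisson intervals for counting error only. The sums of matrix and leukocyte adhesion genes are highest in sMCAO ipsi (11987 and 7979 CPM), those of capillary and transporter genes are highest in a Sham library, and neuronal genes reach 8039 CPM in Sham L and 558 CPM in sMCAO ipsi.

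On the lower side, the 10 genes nearest to the threshold in MCAO ipsi against Sham were Nrg3, Lrrtm4, Kcnip4, Cntnap2, Xkr4, Kcnd2, Dpp10, Ntm, Cert1 and AABR07006724.1. Nrg3, a neuregulin, was at 1462 and 1345 CPM in Sham, 1222 and 1757 CPM in MCAO contra, and 400 and 188 CPM in MCAO ipsi (log2 fold change -2.25 ± 0.49, adjusted p = 0.101 by edgeR's quasi-likelihood test). Kcnip4 was at 3362, 2391, 1548, 1757, 667 and 175 CPM (-2.80 ± 0.64). Without sMCAO ipsi the log2 fold changes of Nrg3 and Kcnip4 were -1.50 and -1.82, and without mMCAO ipsi that of Kcnip4 was -3.57. The neuronal list given above, which holds Kcnip4, was also lower in MCAO ipsi, and 3 of its 4 tested genes were lower at an unadjusted p under 0.05 (12.1% of all genes were), with a median log2 fold change of -2.45. As an alternative, neuronal background RNA was subtracted, using the profile of all other nuclei scaled to take out the members' whole sum of that list. Genes of the list, such as Kcnip4, were thus bound to fall, and the source of the RNA was not tested. With this subtraction, 7 of the 10 genes (Nrg3, Lrrtm4, Kcnip4, Cntnap2, Kcnd2, Dpp10 and Ntm) no longer passed the filter. The log2 fold change of Xkr4 was then -1.69 instead of -2.61, that of Cert1 -1.79 and that of AABR07006724.1 -3.71, none past the threshold.

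MCAO ipsi was next compared with MCAO contra, the opposite hemisphere of the same rats. Of 372 genes 1 was called (0.269%), and it fell. Xkr4, a member of the XK family of membrane proteins, was at 438.5 and 448 CPM in Sham, 1059 and 1130 CPM in MCAO contra, and 26.7 and 75.3 CPM in MCAO ipsi. Its log2 fold change was -3.88 ± 0.57 (adjusted p = 0.0331 by edgeR's quasi-likelihood test), and both MCAO contra libraries were higher than all others. It reached the filter's level of 523 CPM in MCAO contra alone, so it was tested through the group where it was high. The neuronal list was at 8039, 7174, 4563, 8032, 2376 and 558 CPM in library order. Without the 5% highest doublet scores its log2 fold change was -3.90 (adjusted p = 0.061) and with the neuronal background RNA subtracted -4.67 (adjusted p = 0.276), and edgeR's quasi-likelihood test then called 0 genes. Without mMCAO contra its log2 fold change was -3.61 (adjusted p = 0.237 by the same test) and 3 other genes were called (Opcml, Csmd1 and Pcdh15, all lower). Without sMCAO ipsi it was -4.78, and without mMCAO ipsi 61 genes were called. DESeq2 called 4 genes in this comparison, Xkr4, Trpm3 and Kcnd2 lower and 1 mitochondrial transcript higher.

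At an unadjusted p under 0.05, 25 genes were higher in MCAO ipsi than in MCAO contra (6.72%) and 28 lower (7.53%), with a median log2 fold change of 0.04 over all genes. Beside Col4a1, Sparc and Igfbp7, the genes nearest to the threshold on the higher side were Entpd1 (log2 fold change 2.26 ± 0.64), Itm2b, Vps25, Actb, Slc39a10 and 2 genes without a symbol (ENSRNOG00000047931 and ENSRNOG00000004060). Vps25, a subunit of the complex that sorts membrane proteins for breakdown, was at 219, 149, 122, 126, 694 and 544 CPM in library order. Actb, cytoskeletal actin, was at 1023 and 1345 CPM in Sham, 448 and 628 CPM in MCAO contra and 1655 and 1266 CPM in MCAO ipsi. Vps25 was higher in MCAO ipsi than in both other groups, but it and Entpd1 passed the filter through MCAO ipsi alone, as Trpm3, named next, did through MCAO contra alone. For Actb, Sham and MCAO ipsi overlapped and MCAO contra was lowest. Trpm3, Nrg3, Kcnd2, Dgkb and Ralyl, genes that neurons use, were on the lower side with log2 fold changes from -3.75 to -2.21.

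A list of cytoskeletal and mesenchymal genes was read in the same comparison. Of its 8 tested genes, 3 were higher and 0 lower than MCAO contra at an unadjusted p under 0.05, beside 6.72% and 7.53% of all genes, with a median log2 fold change of 0.40 (0.04 for all genes), and 0 were called. Vim (1.13 ± 0.48) and the myosin gene Myh9 (1.16 ± 0.50) were among these. Vim, Myh9 and Zeb1 would not have passed the filter without MCAO ipsi, which favoured higher values there, so the count is no support for a direction. The sum of its 26 detected genes, at 5920, 7174, 7170, 5397, 7581 and 7465 CPM, was hardly apart between the groups. Acta2, Snai2 and Twist1, which mark a mesenchymal state, were at 0 in every library.

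The comparison of MCAO contra with Sham asked whether endothelium outside the lesion differed. edgeR's quasi-likelihood test called 0 of 372 genes (0%) and DESeq2 called 0. At an unadjusted p under 0.05, 16 genes were higher (4.3%) and 11 lower (2.96%). Il1r1, Pip5k1b, Plpp1, Peak1 and Luc7l2 were among the 10 nearest to the threshold on the higher side, with adjusted p of 0.418 for each by edgeR's quasi-likelihood test, and each of these was also among the 10 of MCAO ipsi against Sham. Both comparisons use the same Sham libraries, of 14 and 9 nuclei, so their values are not independent. On the lower side B2m, the light chain of class I antigen presentation, was at 950 and 1046 CPM in Sham, 367 and 251 CPM in MCAO contra, and 801 and 609 CPM in MCAO ipsi (-1.58 ± 0.50).

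Haemoglobin genes were also on the lower side. Hba-a2 was at 7820 and 747 CPM in Sham, 652 and 0 CPM in MCAO contra, and 827 and 1205 CPM in MCAO ipsi, and Hbb-b1 at 5627, 747, 407, 377, 240 and 609 CPM. Sham L alone was high for both, and 76 of its 77 Hbb-b1 UMIs lay in 3 of the 4 nuclei described above. Without Sham L and Sham R in turn the count of called genes in MCAO contra against Sham was 0 each time, and it reached 3 without either MCAO ipsi library (Il1r1 higher, Hba-a2 and Hbb-b1 lower, named after their values were seen).

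Severe and moderate lesions were compared by their ipsilateral libraries, sMCAO ipsi with 199 and mMCAO ipsi with 36 endothelial nuclei. With 1 library for each there is no test, and the ratios carry exact 95% Poisson intervals of the counts alone. Of 3506 genes with at least 20 UMIs in one of the libraries, the interval left out a 2-fold difference for 8 that were higher in sMCAO ipsi (0.228%) and for 32 that were lower (0.913%). The higher genes included Tacr1, Mgp, Cd200, Ecm1, A2m, Kit and AABR07005844.1, and the lower ones included Rbfox1, Pex5l, Tmeff2, Kcnip4, Klf2 and Cxcl12.

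Tacr1, the receptor for substance P, had 250 UMIs in sMCAO ipsi, 1 in mMCAO ipsi and 0 in Sham and MCAO contra, a ratio of 32.1 (5.70 to 1271). After thinning, 42 of 199 members held it in sMCAO ipsi (21.1%), against 0.650% of other nuclei there. Mgp, matrix Gla protein, which marks arterial endothelium, had 0, 0, 5, 0, 3 and 233 UMIs (798 CPM in sMCAO ipsi and 204 CPM in mMCAO contra), a ratio of 9.96 (3.37 to 48.6). Cd200, a membrane protein that signals to myeloid cells, had 3, 2, 2, 1, 6 and 211 UMIs, a ratio of 4.51 (2.04 to 12.4). In CPM Cd200 was at 219, 299, 81.5, 126, 160 and 722. By CPM, sMCAO ipsi was the highest library for each of these, while Cd200 was higher in Sham than in mMCAO ipsi.

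Ecm1 (81 UMIs), the protease inhibitor gene A2m (63 UMIs) and the receptor kinase gene Kit (61 UMIs) were found in sMCAO ipsi alone, with lower bounds of 2.75, 2.13 and 2.06. The A2m UMIs lay in 12 of 199 members, and the Poisson bound does not allow for such clustering. Over the floor of 3 UMIs in the pooled Sham members, Ecm1, A2m and Kit were at least 1.88-fold, 1.46-fold and 1.42-fold higher in sMCAO ipsi. This does not extend to mMCAO ipsi, which held 0 UMIs of each. AABR07005844.1, a gene without a name, had 110 UMIs in sMCAO ipsi and 1 in mMCAO ipsi.

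On the lower side, Rbfox1, a splicing regulator of neurons, had 26 UMIs in mMCAO ipsi (694 CPM) and 36 in sMCAO ipsi (123 CPM), a ratio of 0.178 (0.104 to 0.306). Pex5l, Tmeff2, Npas3, Dock10 and Ano4 had ratios from 0.142 to 0.184. The neuronal list was also lower in sMCAO ipsi, at 2376 CPM in mMCAO ipsi and 558 CPM in sMCAO ipsi, and its part in these genes was not tested. Klf2, a transcription factor of endothelium under flow, was at 827 and 212 CPM (ratio 0.256, 0.164 to 0.408), and Cxcl12 at 774 and 226 CPM (0.292, 0.186 to 0.469). These last were singled out after their values were seen.

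**Figure D4:**
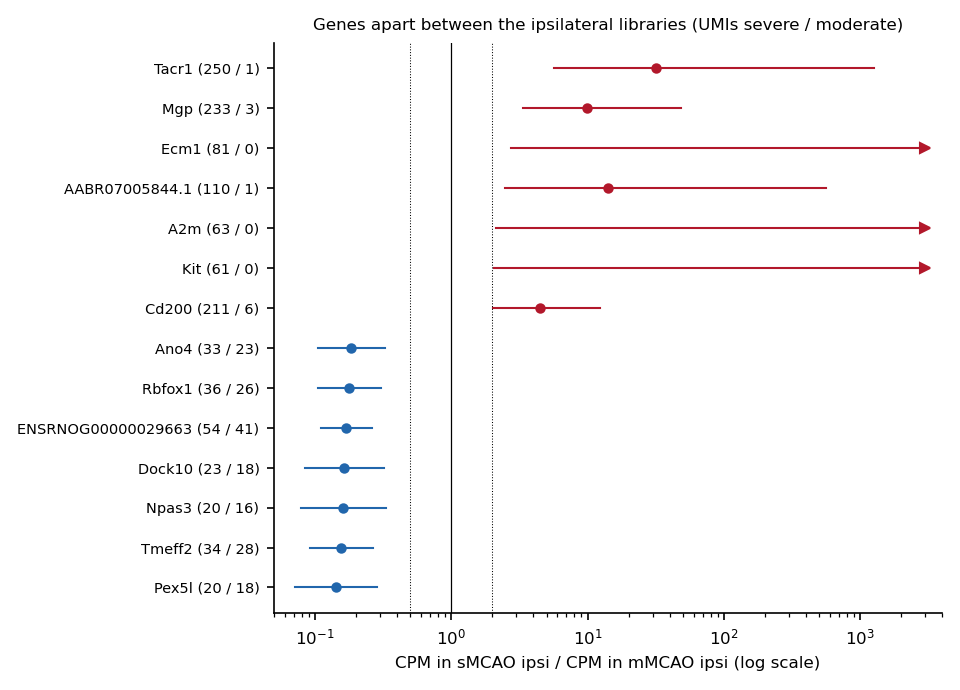
Ratio of CPM in sMCAO ipsi to CPM in mMCAO ipsi (horizontal axis, log scale) for 14 of the genes furthest apart, with exact 95% Poisson intervals and UMIs in parentheses. Dotted lines mark 2-fold, and an arrow means no UMI in mMCAO ipsi. Tacr1 (250 and 1 UMIs) has the highest ratio, 32.1, and Pex5l the lowest of those shown, 0.142.

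Sums of lists were compared between the same 2 libraries, again with counting error alone. Arterial genes summed to 1958 CPM in sMCAO ipsi and 721 CPM in mMCAO ipsi, a ratio of 2.72 (1.85 to 4.16), or 1.81 (1.20 to 2.87) without Mgp, which was itself among the genes furthest apart. Capillary genes summed to 938 and 2162 CPM, a ratio of 0.43 (0.34 to 0.56), or 0.51 without Cxcl12. Genes of VEGF, angiopoietin and Notch signalling had a ratio of 1.71 (1.38 to 2.14), those of leukocyte adhesion 1.56 (1.35 to 1.82), or 1.34 without Il1r1, and those of matrix 1.31 (1.17 to 1.47). The identity list itself had a ratio of 1.23 (1.13 to 1.34), an interval that overlaps that of the matrix list, and barrier genes had 0.85 (0.76 to 0.95). Immediate early and Klf genes stood lower, at 0.55 (0.44 to 0.69), or 0.67 without Klf2. The intervals took in 1 for hypoxia and glycolysis genes (0.998), TGF-beta, BMP and Wnt signalling (1.03), actin and mesenchymal genes (0.985) and the cell cycle (0.895). Il1r1 itself had a ratio of 2.26 (1.69 to 3.11) and Col4a1 of 1.46 (1.08 to 2.03), while Sparc, at 0.965 (0.751 to 1.26), was not apart.

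Along the vascular tree, arterial genes summed to 365 and 149 CPM in Sham, 652 and 251 CPM in MCAO contra, and 721 and 1958 CPM in MCAO ipsi. The extracellular matrix gene Fbln5, one of them, was found in MCAO ipsi alone, at 187 and 383 CPM, and was at least 3.91-fold higher there than in MCAO contra over the floor of 3 UMIs, or 2.03-fold in mMCAO ipsi alone. Capillary genes, among them Spock2, Tfrc and Cxcl12, summed to 4531, 5081, 1956, 2636, 2162 and 938 CPM. All 3 that could be tested had lower values in MCAO ipsi than in Sham, 2 of them at an unadjusted p under 0.05 (12.1% of all genes were), with a median log2 fold change of -1.73 (0.14 for all genes). Tfrc and Spock2 reached the filter's level in Sham alone, which favoured this direction. Capillary genes are partly the same as in the transporter list. Venous genes summed to 877, 747, 2241, 2636, 1895 and 3570 CPM, mostly through Il1r1, and the only one tested was Il1r1.

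After each nucleus was thinned to 500 UMIs, at least 1 arterial UMI was found in 21.4, 11.1, 27.3, 0, 19.4 and 43.2% of members in library order, and at least 1 capillary UMI in 71.4, 55.6, 42.4, 40, 41.7 and 28.1%. Capillary genes were thus most frequent in Sham and arterial genes in sMCAO ipsi. Within the 199 members of sMCAO ipsi, 62 held at least 3 arterial UMIs, and these 62 had 488 of the 572 arterial UMIs, with at most 47 in 1 nucleus. At least 2 capillary UMIs were held by 52, and 12 members did both. The median depth of the 62 was 1385.5 UMIs, against 1121 for the library.

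Cell cycle genes were spread unevenly as well. They summed to 365 and 448 CPM in Sham, 937 and 628 CPM in MCAO contra, and 2189 and 1958 CPM in MCAO ipsi, where both libraries lay above the rest. None of the 44 detected genes passed the filter. Diaph3, a formin used in cell division, had 8 UMIs in mMCAO ipsi, 68 in sMCAO ipsi and 0 elsewhere, which was at least 1.57-fold higher in MCAO ipsi than in Sham over the floor. In sMCAO ipsi, 18 of 199 members held at least 5 cell cycle UMIs, together 445 of 572, and their median depth was 2358.5 UMIs. Thinned, at least 1 such UMI was found in 14.3, 11.1, 9.09, 30, 36.1 and 31.7% of members.

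To see whether endothelial nuclei differed from neighbouring cells of the vessel, the change of MCAO ipsi against Sham was compared with that in mural nuclei (10, 7, 6, 6, 20 and 34, selected on the 4 mural genes with at most 1 endothelial marker UMI). The mural nuclei were not free of endothelial RNA, since the identity list summed there to 11609, 11011, 9169, 16388, 8740 and 3159 CPM. edgeR's quasi-likelihood test (Benjamini-Hochberg) called 6 of 204 genes (2.94%), each with a lower change in endothelial nuclei. Cacna1c, a calcium channel subunit of contractile cells, had 2, 3, 8, 1, 1 and 2 UMIs in endothelial and 3, 4, 13, 4, 19 and 130 UMIs in mural nuclei, a log2 difference of -7.42 ± 1.60 (adjusted p = 0.000362). Atp13a5, a known pericyte gene, had 4, 5, 6, 1, 0 and 3 UMIs in endothelial and 13, 5, 15, 7, 35 and 53 UMIs in mural nuclei (-6.26 ± 1.36). The other 4 were AABR07006724.1, Ntm, Hba-a2 and Hbb-b1. The count was 0 without Sham R, 2 without Sham L and 2 without sMCAO ipsi, and 35 without mMCAO ipsi.

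The same comparison with astrocyte nuclei (16, 13, 70, 73, 243 and 385) called 2 of 1174 genes (0.17%), again with a lower change in endothelial nuclei. Both are metabotropic glutamate receptors. Grm5 had 11, 8, 17, 0, 13 and 17 UMIs in endothelial and 9, 9, 86, 93, 1197 and 2830 UMIs in astrocyte nuclei, a log2 difference of -4.67 ± 0.83 (adjusted p = 2.83e-05 by edgeR's quasi-likelihood test), and Grm3 differed by -3.52 ± 0.84 (adjusted p = 0.0179). Il1r1 differed the other way, by 5.41 on the log2 scale, and missed the threshold (adjusted p = 0.0855 by edgeR's quasi-likelihood test). In astrocyte nuclei, whose summed depth differed widely between libraries, Grm5 was at 721, 910, 1181, 1360, 3366 and 2700 CPM. Grm3 was at 962, 1315, 1881, 2106, 2384 and 1987 CPM there. In endothelial nuclei Grm5 was at 804, 1196, 693, 0, 347 and 58.2 CPM and Grm3 at 731, 897, 611, 628, 507 and 27.4 CPM. The part of neuronal RNA in these values was not tested. The count was 1 without Sham L, Sham R or sMCAO ipsi, 4 without mMCAO contra, and 31 without mMCAO ipsi.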

How the data were processed

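Nuclei of 6 libraries were processed with a droplet-based 5' kit, and the authors deposited raw UMI counts of 30560 genes, made with Cell Ranger 7.0.0 on mRatBN7.2 per the submitters' processing notes, intronic reads included. Later steps of the authors (removal of background RNA, doublets) are not in these counts. No doublets were removed here, and leaving out the 5% highest doublet scores was an alternative. The members, gene lists and tests were chosen with earlier results of these data known. UMIs of the members were summed per library and genes passing edgeR's filterByExpr (minimum count 10) were tested over all 6 libraries with edgeR 4.0.16 in R 4.3.3 (TMM, quasi-likelihood test, 3 residual degrees of freedom, Benjamini-Hochberg adjustment), with DESeq2 1.42.0 as an alternative. The models on endothelial, mural and astrocyte sums had each library as a term. On simulated data with 124 of 372 genes changed in each draw, 69.35% of 4-fold changes were recovered in MCAO ipsi against Sham. At most 4 unchanged genes were called. The spread between simulated libraries was set alike for every gene and was not estimated from these data. The share recovered is therefore not the share of real 4-fold changes that the test would find. Recovery with fewer changed genes was not simulated.

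Named genes were the selection genes, those called or else the 10 nearest to the threshold in each direction with groups apart, up to 4 per list by p and 2 by level, and those furthest apart between the ipsilateral libraries. Detection was read after thinning to 500 UMIs. Sham against MCAO cannot be paired. MCAO contra and MCAO ipsi come from the same rat pools, and deviations of the pools from the group means correlated by -0.17 across 372 genes (log2 of CPM plus 50), so a fit with the rat pool as a block was an alternative. Promoter windows came from RefSeq. Intervals and floors (3 UMIs) cover counting error only. Flt1 and Cldn5 were not analysed here, some genes that the rule names are not reported here, and no genome was used.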

Additional observations from a re-analysis of the deposited data

Results flagged for a closer look

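The change of MCAO ipsi against Sham differed for 8 genes between endothelial nuclei and another class by an interaction term in edgeR's quasi-likelihood test (Benjamini-Hochberg). Against mural nuclei the log2 differences were -7.42 for Cacna1c, -6.26 for Atp13a5, -4.8 for AABR07006724.1, -4.1 for Ntm, -9.5 for Hba-a2 and -6.19 for Hbb-b1. Hba-a2 had 0 UMIs in the mural nuclei of both Sham libraries, so -9.5 is a fitted value and not a measured size. The identity list in mural nuclei was at 11609 and 11011 CPM in Sham but at 8740 and 3159 CPM in MCAO ipsi. The part of endothelial RNA in these differences was not tested. Hba-a2 and Hbb-b1 rest on Sham L, whose endothelial nuclei held 107 and 77 UMIs of them while its mural nuclei held 0 and 1, and without Sham L only Atp13a5 and Cacna1c were called. Without Sham R 0 were called, and without sMCAO ipsi only Hba-a2 and Hbb-b1. Against astrocyte nuclei the differences were -4.67 for Grm5 and -3.52 for Grm3. The neuronal list in the endothelial nuclei was at 8039, 7174, 4563, 8032, 2376 and 558 CPM in library order. Ntm was at 438.5, 1495, 611, 1004, 187 and 44.5 CPM, Grm5 at 804, 1196, 693, 0, 347 and 58.2 CPM and Grm3 at 731, 897, 611, 628, 507 and 27.4 CPM. In astrocyte nuclei Ntm was at 7292, 7081, 8006, 7445, 5334 and 2879 CPM. The part of neuronal or astrocyte RNA in these differences was not tested. With the neuronal background RNA subtracted, Ntm no longer passed the filter in MCAO ipsi against Sham.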

How the results depend on the processing

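The limits are the small sums (6691 UMIs in Sham R), the weight of sMCAO ipsi and libraries that are not separate animals. The 372 genes tested are those that reached a minimum level in at least 2 libraries, and a low count of calls says nothing of the rest. The 28 named genes of MCAO ipsi against Sham were recomputed under 15 alternatives wherever they passed the filter. Only 18 passed it with neuronal RNA subtracted and 5 with thinned sums. With at least 5 marker UMIs, 11 kept their side and 1 moved past the threshold, and the others were not tested. Some were also not tested without mMCAO contra, mMCAO ipsi or sMCAO ipsi. No direction reversed among these results, of which 55 moved past the threshold and 300 kept their side.

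In MCAO ipsi against Sham, where 0 genes were called, DESeq2 called 5, no filter on low counts 4 (Entpd1, Peak1, Tacr1 and Mgp, higher), a minimum count of 5 called 3, at least 5 marker UMIs 1, and sums thinned to the smallest library 3 (Kcnip4, Pde4d and Il1r1). Leaving out a library gave 0 to 86. In MCAO ipsi against MCAO contra, where Xkr4 was called, DESeq2 gave 4, no filter 3 and a minimum count of 5 gave 3. At least 5 marker UMIs gave 2 (Sparc and Kcnip4), and no doublets or no neuronal background 0 (Xkr4 at -3.90 and -4.67 on the log2 scale). Sums thinned to the smallest library gave 1, the mitochondrial transcript that DESeq2 also called. Xkr4 was not among the genes tested with at least 5 marker UMIs or with thinned sums. Leaving out a library gave 1 to 61, and the highest count was without mMCAO ipsi. With the rat pool as a replicate block the count was 1, and the block changed no other call. The crossed pairing of the pools, tried after the data were seen, gave 16. In MCAO contra against Sham leaving out a library gave 0 to 3. For the differences from mural nuclei it gave 0 to 35 and from astrocyte nuclei 1 to 31, where the median of ratios gave 4.

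The share of endothelial nuclei with at least 5 marker UMIs was 0.0610, 0.0220, 0.0966, 0.0371, 0.185 and 1.88% in library order. Without the limit on mural genes it was 0.160, 0.110, 0.338, 0.195, 0.448 and 2.60%. Thinned to 1000 UMIs it was 0.0537, 0.00820, 0.0575, 0.0547, 0.181 and 1.92%. Nuclei chosen by the identity list, tried after the data were seen and mostly not members, made up 0.290, 0.220, 0.745, 0.435, 2.15 and 4.99%. sMCAO ipsi was highest under each. In sMCAO ipsi against mMCAO ipsi, at least 5 marker UMIs gave 10 genes higher and 24 lower, and leaving out doublets 8 and 36.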

Other observations

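Lists of other endothelial functions were read in the same members. Hypoxia and glycolysis genes, 25 of 28 found, summed to 3289, 2840, 2485, 3640, 3817 and 3810 CPM in library order, and the hypoxia-inducible factor gene Epas1 was at 804 and 1196 CPM in Sham and 1041 and 1071 CPM in MCAO ipsi. Heat shock genes, 27 of 28 found, summed to 1827, 1345, 1426, 1381, 1842 and 2256 CPM, with none tested. Immediate early and Klf genes were highest in Sham L, at 3873 CPM, and lowest in sMCAO ipsi, at 1489 CPM. Interferon and antigen presentation genes summed to 1316 and 1345 CPM in Sham, 530 and 628 CPM in MCAO contra, and 1094 and 1041 CPM in MCAO ipsi. B2m made up most of each sum except in sMCAO contra, where it was at 251 CPM.

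Genes of VEGF, angiopoietin and Notch signalling summed to 2631, 3139, 2567, 1883, 2429 and 4152 CPM, and Tek, the only one tested, was at 512 and 897 CPM in Sham and 614 and 910 CPM in MCAO ipsi (log2 fold change 0.40 ± 0.47). Those of TGF-beta, BMP and Wnt signalling summed to 7089, 5081, 7944, 5522, 8595 and 8848 CPM, and the 3 tested had a median log2 fold change of 0.55 over Sham, beside 0.14 for all genes. Coagulation genes summed to 1462, 1793, 1263, 2385, 2269 and 2820 CPM. Plat, the tissue plasminogen activator, was at 1023 and 1196 CPM in Sham, 489 and 879 CPM in MCAO contra, and 507 and 400 CPM in MCAO ipsi (-1.15 ± 0.42), and Tfpi, the inhibitor of the tissue factor pathway, at 292, 149, 244, 628, 694 and 445 CPM (1.35 ± 0.69). None of these passed the test. Plat would not have passed the filter without Sham, nor Tfpi without MCAO contra or MCAO ipsi, which favoured these directions. With each library left out in turn, the log2 fold change of Plat ran from -1.03 to -0.79.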
